A study of Zea mays with 32 samples.

Results

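A group of 40 genes of the maize root was high in slices 10 to 12, counted from the tip, and lower both nearer to the tip and farther back. They were selected on their counts and chosen by thresholds among 39510 gene identifiers. A gene was a member if its mean over the 6 libraries of slices 10 to 12 was at least 20 CPM (counts per 1000000 counts in the library), at least 3 times its mean over slices 1 to 7 and at least 3 times its mean over slices 14 to 16. Its identifier also had to belong to the Zm00001d series. How far slices 10 to 12 stand above the flanks is therefore a description, with no test. Slices 8, 9 and 13 were not used to choose members, so comparisons among them use no library that entered the thresholds. They are still not free of the choice. Slice 8 borders slices 1 to 7 and slice 13 borders slices 14 to 16, which had to be low, whereas slice 9 borders slice 10. Where neighbouring slices are alike, a rise from slice 8 to slice 9 and a fall from slice 9 to slice 13 were favoured in advance. The comparisons of slice 12 with slice 10 and of the roots over slices 9 to 13 draw on libraries that chose the members and are shaped by the choice directly.

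The material was 2 roots, A and B, of wild-type maize (Zea mays) of the inbred line B73 at 7 days after germination. Plantlets grew at 26 °C and 12 h light per day on germination paper, with no treatment and no other genotype. The roots were pinned side by side and hand-cut together into 16 slices from the tip backwards, which gave 1 RNA-seq library per root and slice (n = 2 per slice). The labels give neither the thickness of a slice nor its developmental zone, so slices are ordered but not in units of length, and every value rests on 2 roots.

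In a growing root, cells are made near the tip, then elongate, and then mature as new growth leaves them farther behind. Maturing cells lay down secondary walls in the xylem, form the Casparian strip in the endodermis and grow root hairs from the epidermis. A gene that is used during one such step only is on over a short stretch of the root. In slices of whole root, a change in the number of cells of a type and a change in RNA per cell cannot be told apart. The files hold no gene names, and 0 of the identifiers matched the reference table of 49888 maize genes, so members are given by identifier, without function and without sequence.

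The libraries held 1008082 to 5681180 counts (median 1860465). At a common depth of 1000000 counts they held 17414 to 19840 genes, apart from 3 libraries of root A with fewer: 13740 genes in slice 1, 14639 in slice 12 and 8262 in slice 8. Slice 12 of root A was used to choose members and was the most deeply sequenced library. Slice 8 of root A enters the comparison of slice 9 with slice 8. Counts of members and of calls that rest on either are given with and without it. Most levels, and all highest slices and widths, are given with both libraries only. The libraries of slice 7 differed least between the roots, with a chi-square over its degrees of freedom of 1.5 among genes, whereas it was 6.63 or more in every other slice. Counting them as 1 library was an alternative.

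Together, the 40 members formed a hump along the root that began before slice 10 and ended after slice 12. Their summed level was 295 to 780 CPM in the 12 libraries of slices 1 to 6. It reached 1578 CPM in root B and 1704 CPM in root A in slice 7, and 2562 and 3892 CPM in slice 8. In slice 9 it was 5790 CPM in root B and 6976 CPM in root A. Over slices 10, 11 and 12 it was 4320, 5026 and 3375 CPM in root B and 8323, 4758 and 4807 CPM in root A. It was 3440 CPM in root B and 3094 CPM in root A in slice 13, 1792 and 1518 CPM in slice 14, and 629 and 794 CPM in slice 16. In both roots the level of slice 9 was above the levels of slices 11, 12 and 13. As a share of all counts the members took 0.832% (95% Wilson interval 0.817% to 0.848%) at their highest, in slice 10 of root A, and 0.0295% (0.0264% to 0.0329%) at their lowest, in slice 1 of root A. These intervals cover counting error only, since reads of amplified cDNA carried no molecular identifiers and may share a molecule.

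**Figure D1:**
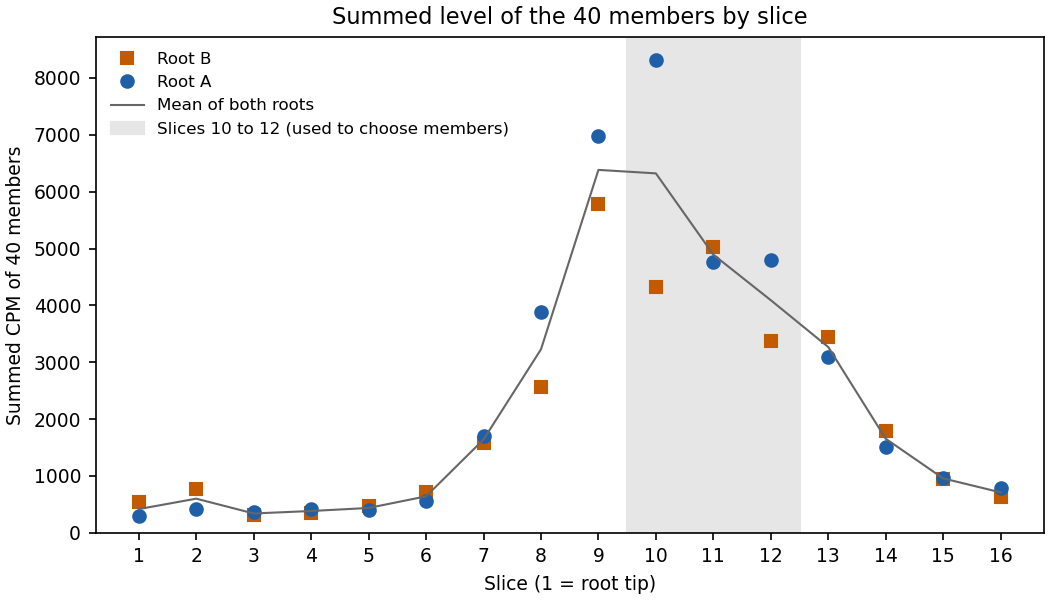
Summed level of the 40 members (CPM, y axis) by slice (x axis, 1 is the tip), with root B as squares, root A as circles and the mean of both as a line. The mean of both roots was highest in slices 9 and 10, at 6383 and 6321 CPM. Slice 10 was at 4320 CPM in root B and 8323 CPM in root A. Shading marks slices 10 to 12, which chose the members.

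A few members carried much of this sum. The mean over slices 10 to 12 had a median of 71.2 CPM over the members and ran from 21.2 to 863 CPM; 14 members were at 100 CPM or more and 19 below 50 CPM. The highest member held 16.9% of the sum and the 3 highest 36.1%. Slices 10 to 12 stood at a median of 7.11 times slices 1 to 7 (3.03 to 183.8 times) and of 4.17 times slices 14 to 16 (3.06 to 38.4 times). The level at the back was the closest of the 3 thresholds for 26 members, and the level at the front and the minimum of 20 CPM for 7 each. In slices 1 to 4 the members Zm00001d043420 and Zm00001d007705, named after their values were seen, had 0 counts of 9617514. By counting error alone, with the libraries pooled, this allows up to 0.312 CPM (3 counts). At the other end, 10 members had a count in every library of slices 1 to 7.

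**Figure D2:**
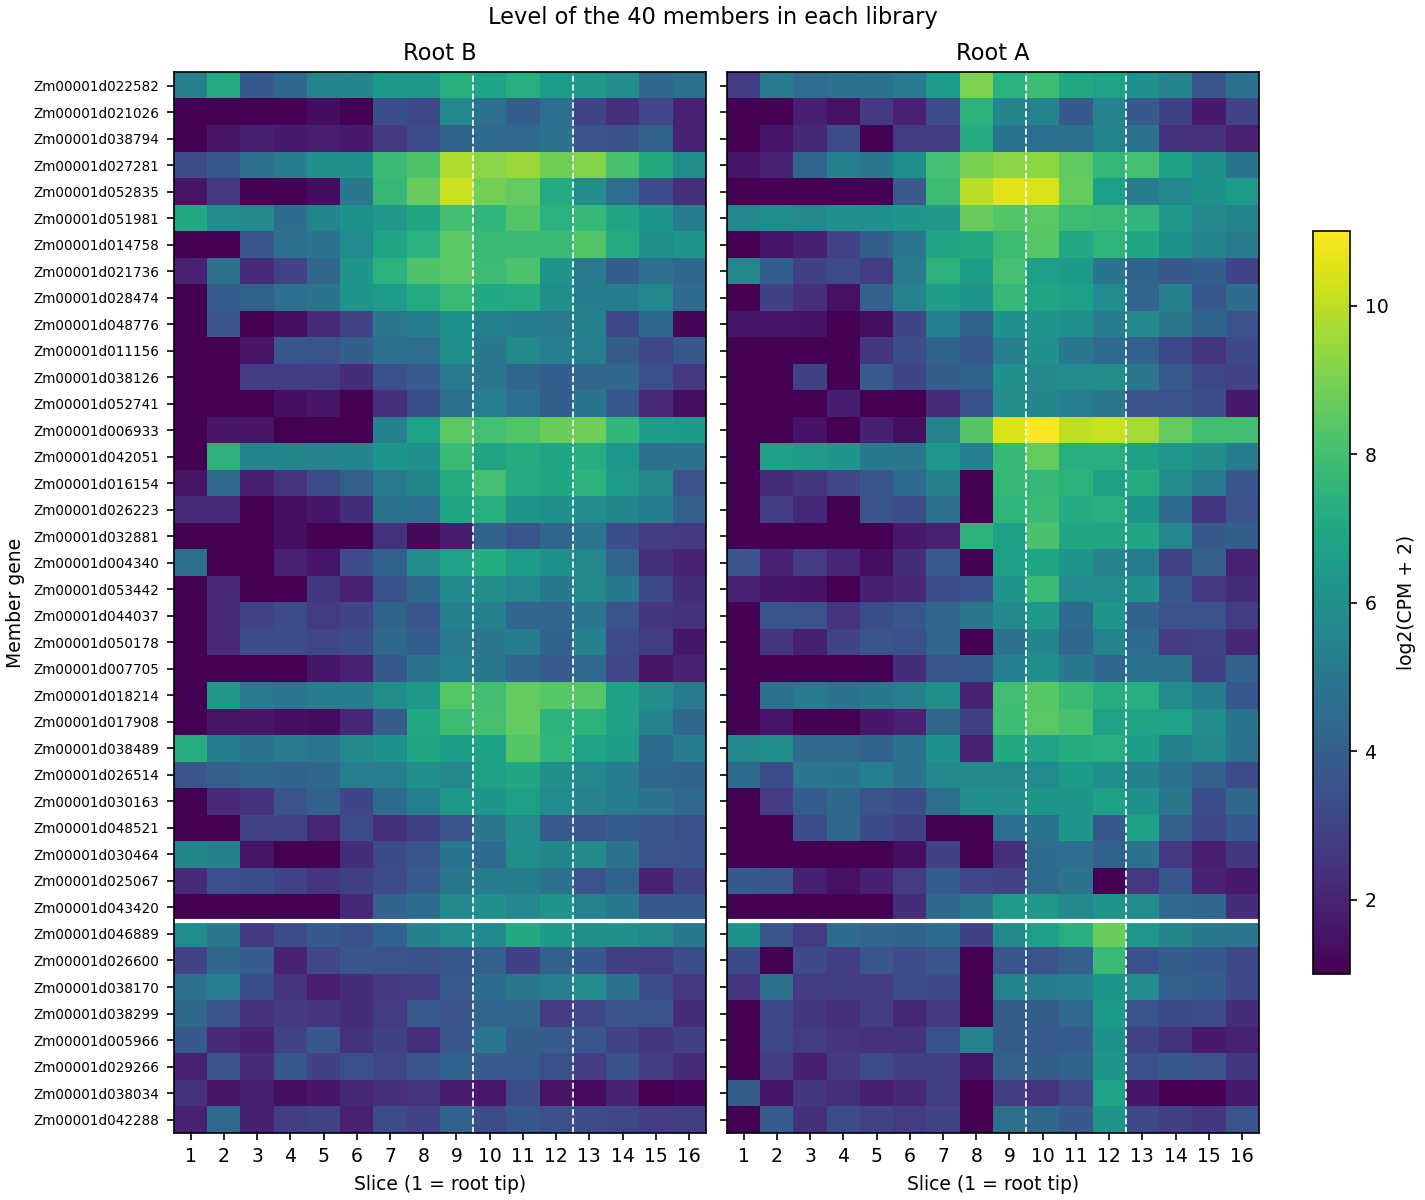
Level of each member (rows) in each slice (columns, 1 is the tip) as log2(CPM + 2), with root B on the left and root A on the right; dashed lines bound slices 10 to 12. The 8 members below the white line no longer met the thresholds without slice 12 of root A; of the 32 above it, 30 were in slice 9 at 50% or more of their level in slices 10 to 12.

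Zm00001d006933 had the highest level of all members. In slices 9 to 13 it was at 348, 254, 308, 420 and 439 CPM in root B, and at 1402, 1978, 1064, 1154 and 813 CPM in root A. Ahead of slice 7 the highest library was at 1.70 CPM, and in slice 7 it was at 39.0 CPM in root B and 41.1 CPM in root A. The gene thus came up in slice 7 in both roots, and from slice 8 on root A was higher in every slice. It did not return to the level of the front: slice 16 still held 85.7 CPM in root B and 241 CPM in root A.

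Zm00001d027281 was second, at 616, 718 and 450 CPM in slices 10 to 12 of root B and 636, 371 and 198 CPM in those of root A. In root B its level climbed over several slices, with 34.3, 64.9, 64.1 and 222 CPM in slices 4 to 7. It reached 901 CPM in slice 9 of root B. Slice 8 was already at 300 CPM in root B and 503 CPM in root A. The roots overlapped in slices 10 to 12.

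Zm00001d052835 and Zm00001d004340 stood farthest above both flanks together, at 12.2 and 11.9 times the higher of the means of slices 1 to 7 and 14 to 16. For Zm00001d052835 slice 9 held the most, with 1175 CPM in root B and 1511 CPM in root A. In slices 10, 11 and 12 it was at 466, 384.5 and 139 CPM in root B and 1396, 396 and 98.4 CPM in root A, so that its hump was centred ahead of the slices that chose it. Zm00001d004340 was closer between the roots, at 106, 145, 91.4, 68.2 and 47.5 CPM in slices 9 to 13 of root B and 99.0, 118, 74.1, 41.5 and 35.1 CPM in those of root A. It was highest in slice 10 in both.

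**Figure D3:**
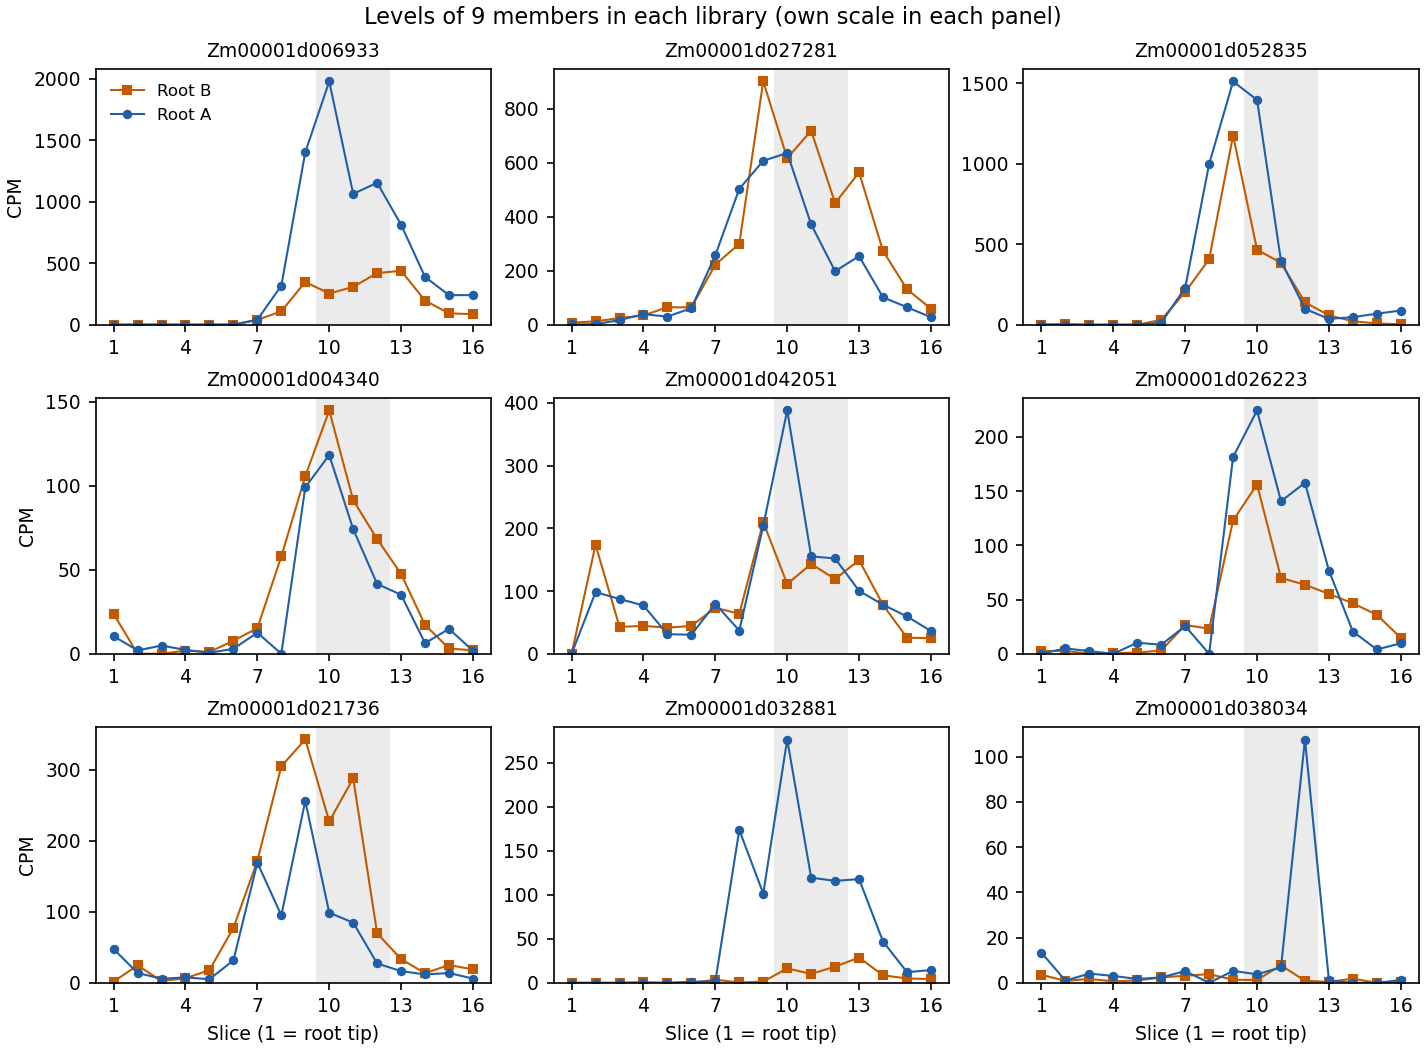
CPM (y axis, own scale in each panel) of 9 members by slice (x axis, 1 is the tip) in root B (squares) and root A (circles), with slices 10 to 12 shaded. Zm00001d004340 was highest in slice 10 of both roots, Zm00001d006933 and Zm00001d032881 were higher in root A, and Zm00001d038034 was high in slice 12 of root A alone.

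Slices 9 and 13, which the choice did not use, were part of the hump for most members, and slice 9 more so than slice 13. Slice 13 borders the slices 14 to 16 that had to be low, whereas slice 8 lies between slice 9 and the low front. In slice 9, 33 members were at 50% or more of their mean of slices 10 to 12, and 21 were above it. In slice 13, 26 members were at 50% or more and 4 were above. Slice 9 stood at a median of 1.02 times the mean of slices 10 to 12 and slice 13 at 0.614 times, against 0.918 and 0.809 times over the 7519 genes tested that had at least 20 CPM in slices 10 to 12. Both libraries of slice 9 lay above all 14 libraries of slices 1 to 7 in 27 members; this held for 8.3% of all genes tested, but a low front was a condition of membership. Both libraries of slice 13 lay above all 6 of slices 14 to 16 in 20 members, against 5.22% of all genes tested, with the same reservation for the back.

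By mean over the roots, 27 members were highest in slices 10 to 12, 9 of them in slice 12. Of these 9, 8 no longer met the thresholds without slice 12 of root A, as described below. The other 13 members were highest ahead of slice 10, 10 in slice 9 and 3 in slice 8. The 3, Zm00001d022582, Zm00001d021026 and Zm00001d038794, are named because they are few; slice 8 of root A, a library of few genes, gave their highest values, at 528.5, 172 and 140 CPM, whereas slice 8 of root B was at 82.2, 6.94 and 8.10 CPM. Taken root by root, the highest slice was 9 for 13 members, 10 for 7, 11 for 11, 12 for 2 and 13 for 4 in root B, where 3 members were highest in slice 1 or 2. It was 8 for 4, 9 for 7, 10 for 15, 11 for 2, 12 for 10 and 13 for 2 in root A. The highest slice was the same in both roots for 10 members and within 1 slice for 27. Levels of at least 50% of the highest slice covered a median of 3.5 slices. They began in slice 8 for 12 members and in slice 9 for 15, and ended in slice 12 for 13 members and in slice 13 for 16. The 12 that began in slice 8 include members that rest on slice 8 of root A. Among them are the 3 highest in that slice and Zm00001d032881, at 0.386 CPM there in root B and 174 CPM in root A. The 13 that ended in slice 12 include members that rest on slice 12 of root A. No member was still at 50% in slice 14, but a low mean of slices 14 to 16 was a condition of membership.

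Slice 12 of root A decided whether 8 of the 40 were members. Without it, 32 members still met the thresholds, 8 did not, and 14 other genes met them, for 46 genes in all. The 8 were Zm00001d046889, Zm00001d026600, Zm00001d038170, Zm00001d038299, Zm00001d005966, Zm00001d029266, Zm00001d038034 and Zm00001d042288. In slice 12 they had a median of 10.7 CPM in root B (0.893 to 84.5 CPM) and of 81.8 CPM in root A (67.1 to 416 CPM), and slice 12 of root A held 32.7% to 84.0% of their sum over the 6 libraries. The 32 had a median of 62.4 CPM in root B and 67.2 CPM in root A.

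Zm00001d038034 was the extreme case. In slice 12 it was at 0.893 CPM in root B and 107.5 CPM in root A. The 4 libraries of slices 10 and 11 lay between 1.24 and 7.74 CPM, below the minimum that defined membership. Zm00001d046889 had the highest level of the 8 outside that library: in slices 10, 11 and 12 it was at 52.4, 134 and 84.5 CPM in root B and at 97.2, 153.5 and 416 CPM in root A, and it was above 20 CPM in each.

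Slice 12 of root A was the library with few genes and the most counts, and it held 50% or more of the 6-library sum in 5 of the 40 members and in 80 of the 7519 genes at 20 CPM or more (1.06%). Each of the other 5 libraries did so in 0 members and in 1 to 6 of those genes. What part the make-up of this library has in the 8 genes was not tested. With slice 12 of root A left out of the mean of slices 10 to 12, slice 9 stood at a median of 0.846 times that mean in the 8 (0.506 to 1.72 times) and 1.13 times in the 32 (0.426 to 2.41 times). It was above that mean in 2 of the 8 and 19 of the 32. The ranges overlap, and the difference was not tested. In root B, the 8 gave 0 members by the same thresholds, and Zm00001d026600, Zm00001d038299 and Zm00001d042288 were highest there in slice 1 or 2.

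**Figure D4:**
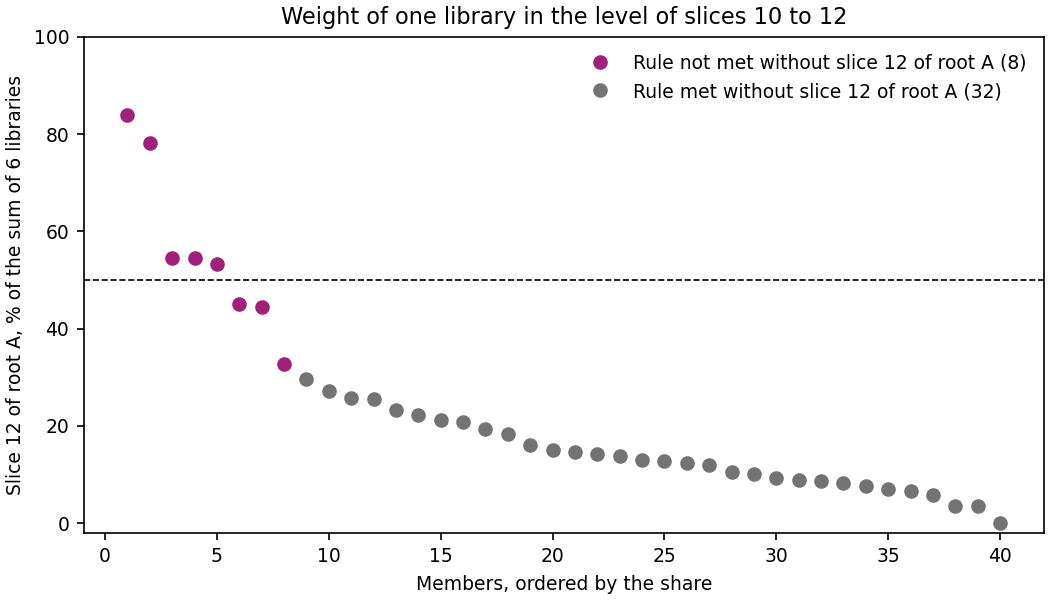
Share of slice 12 of root A in the summed CPM of the 6 libraries of slices 10 to 12 (y axis, percent) for each member, ordered by that share (x axis). Purple points are the 8 members that did not meet the thresholds without that library, at 32.7% to 84.0%, and grey points the other 32, at up to 29.6%; the dashed line is 50%.

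Each of the other libraries of slices 10 to 12 decided fewer members. Leaving out slice 10 of root A took away 5 members, and leaving out slice 11 of root B took away 4. For slice 10 of root B and for slice 11 of root A the number was 1, and for slice 12 of root B it was 0. In all, 23 members met them whichever 1 of the 6 libraries was left out.

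Slice 9 was compared with slice 8 to ask where the hump begins. Of the 40 members, 6 were higher in slice 9 by edgeR's quasi-likelihood test at an adjusted p under 0.05, among 19587 genes tested, of which 2.86% were called and 0.827% were higher. None was lower, against 2.04% of all genes; 1 was lower at an unadjusted p under 0.05, and DESeq2 also called 0. By sign alone 33 members were higher and 7 lower, and 28 were higher in both roots, with a median log2 change of 1.22 against 0.28 over all genes tested. With the root as a block, 7 were called.

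Zm00001d026223 had the largest called change. It was at 123 CPM in root B and 181.5 CPM in root A in slice 9, against 23.1 and 0 CPM in slice 8. Both roots were higher in slice 9, and the 2 slices did not overlap. The log2 change was 3.63 ± 0.83 (SE), with an edgeR adjusted p of 0.012. The other 5 called members, Zm00001d016154, Zm00001d038170, Zm00001d018214, Zm00001d042051 and Zm00001d017908, had log2 changes of 1.97 to 3.30 and were also higher in both roots.

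The calls did not outlast leaving out slice 8 of root A. That library had 11 members at 0 counts, against 0 members in slice 8 of root B. Leaving it out left slice 8 with 1 library, and the median log2 change of members was then 1.41, against 1.22 with it. Without it 0 members were called by edgeR, with 17 at an unadjusted p under 0.05, and Zm00001d026223 had a log2 change of 2.96 with an adjusted p of 0.284. Without either library of slice 9 the count was also 0, with 10 (root A left out) or 14 members (root B left out) at an unadjusted p under 0.05, while the sizes stayed close: the median log2 change was 1.13 or 1.28, and that of Zm00001d026223 3.29 or 3.96, with 1 sample fewer in slice 9. Without slice 8 of root B it was 13, of which 10 were higher and 3 lower.

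Slice 13 was compared with slice 9, the slices on either side of the chosen stretch. Both this comparison and the one above use the libraries of slice 9. Of the members, 3 fell in slice 13 by edgeR, against 0.49% of all genes tested, and 0 rose, against 2.12% of all genes; 2.61% of all genes were called in either direction. At an unadjusted p under 0.05, 1 was higher, and DESeq2 called the same numbers, 3 lower and 0 higher. By sign, 29 were lower in slice 13 and 22 lower in both roots. The median log2 change was -0.35 over the members and -0.02 over all genes. With the root as a block the count of members was also 3, and that of all genes 882 in place of 512.

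Zm00001d052835 changed most. It was at 58.2 CPM in root B and 36.2 CPM in root A in slice 13, against 1175 and 1511 CPM in slice 9. The slices are far apart in both roots, with a log2 change of -4.63 ± 1.07 (SE) and an edgeR adjusted p of 0.0206. Zm00001d021736 was at 33.4 CPM in root B and 16.4 CPM in root A in slice 13, against 342 and 256 CPM in slice 9. This is -3.36 ± 0.77 (SE) on the log2 scale, at an adjusted p of 0.00979 in edgeR. The last, Zm00001d028474, was at 34.7 CPM in root B and 16.99 CPM in root A in slice 13, against 216 and 198 CPM in slice 9, which is -2.78 ± 0.67 (SE) on the log2 scale, at an adjusted p of 0.0164 in edgeR. In slice 13, 4 members were above their mean of slices 10 to 12, at 1.01 to 1.65 times it. They were Zm00001d014758, Zm00001d038170, Zm00001d048521 and Zm00001d030464, and they were not called in this comparison. By root, Zm00001d014758 was above its mean in root B only. Zm00001d048521, the highest ratio, was above it in root A only, at 10.7 CPM in root B and 104 CPM in root A in slice 13. Leaving out any 1 of the 4 libraries of slices 9 and 13 left 0 members called by edgeR, with 4 to 6 at an unadjusted p under 0.05.

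Within the chosen stretch, slice 12 was compared with slice 10, both of which chose the members, so nothing is read from the counts. By edgeR 1 member was called higher, against 0.0664% of all genes, and 0 lower, against 0.0255% (0.0919% in either direction); 3 were lower at an unadjusted p under 0.05, and DESeq2 called 0 in either direction. By sign 25 members were lower in slice 12, with a median log2 change of -0.33 against -0.05 over all genes. With the root as a block the count was also 1, and that of all genes 58 in place of 18. The member called, Zm00001d038034, is named because it is the only one, and it is a member through slice 12 of root A alone. It differed by -0.18 in root B and 4.75 in root A on the log2 scale, and the fitted value of 5.03 became -1.01 without slice 12 of root A. Leaving out the library of root B in slice 12 gave 7 called members, and leaving out that of root A gave 0, with 2 at an unadjusted p under 0.05. Of the 32 members that do not depend on slice 12 of root A, 25 were lower in slice 12 than in slice 10, with a median of -0.56. Setting aside the other 8, all of them higher in slice 12, favoured this count, so nothing is read from it either. Over all members, the median change turned positive without slice 10 of root A.

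**Figure D5:**
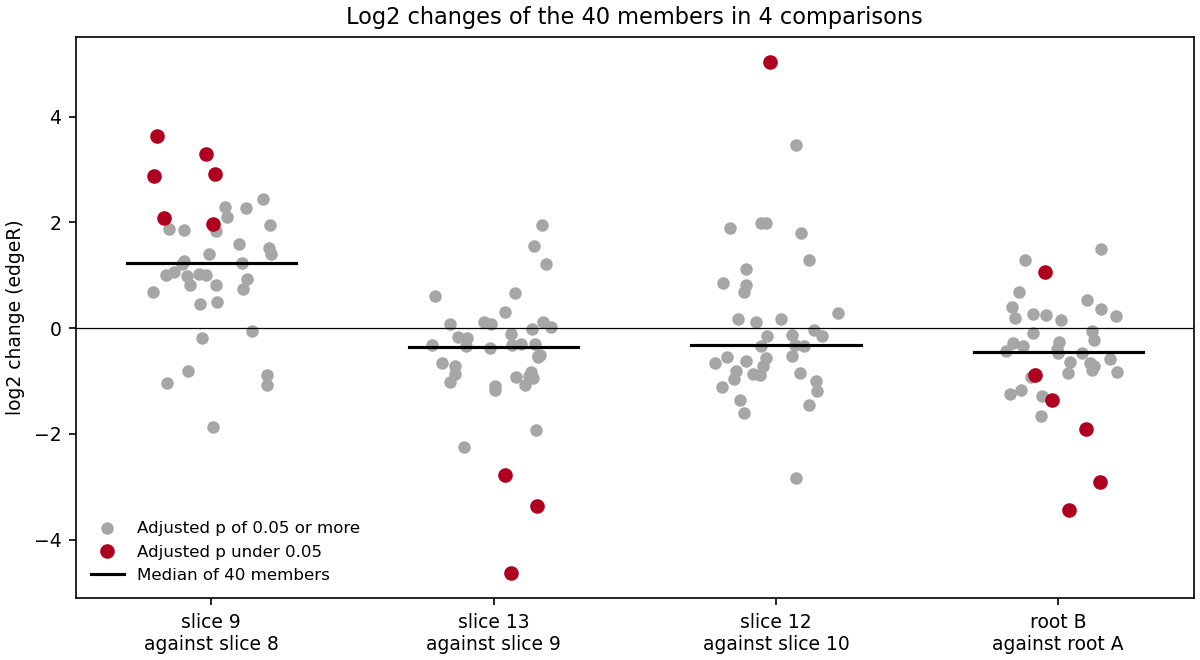
Fitted log2 change (y axis) of each of the 40 members (points) in the 4 comparisons (x axis), with red for an edgeR adjusted p under 0.05 and a black line at the median. Medians were 1.22 for slice 9 against slice 8 and -0.35, -0.33 and -0.45 for the other comparisons, each with members on both sides of 0; sideways scatter within a column carries no value.

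Between the roots, the choice of members has to be set aside first. Of the 40, 18 met the thresholds in root A only and 5 in root B only, so many were members through the root in which they are high. Over slices 9 to 13, with the slice in the model, edgeR called 1 member higher in root B, against 2.1% of 17116 genes tested, and 5 lower, against 2.06% (4.16% in either direction). Each of these 6 met the thresholds in the higher root only, and nothing is read from the count. Slices 9 and 13 were not used to choose members. In a fit on these 4 libraries alone, chosen after seeing the data, edgeR called 0 of the 39 members tested and 82 of 14631 genes (0.56%). At an unadjusted p under 0.05, 5 members were higher and 3 lower in root B; DESeq2 was not run on these libraries. By sign 17 members were higher and 22 lower, with a median log2 difference of -0.18 over the members and -0.01 over all genes. In CPM, 13 members were higher in root B in both slices and 10 were lower in both. Each side is 1 root with its slices as replicates, so these p-values do not measure the spread among roots. The labels do not say whether the 2 roots came from separate plants.

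Zm00001d032881 differed most between the roots, and it is a member through root A. In slices 9 to 13 it was at 1.36, 16.4, 10.1, 18.5 and 28.7 CPM in root B, and at 101, 276, 119.5, 116 and 118 CPM in root A. The roots did not overlap over these 5 slices. On slices 9 and 13 alone the log2 difference was -3.35 ± 0.66 (SE), with an edgeR adjusted p of 0.0549, above the threshold of 0.05. In the front of both roots it was at a mean of 0.505 CPM in slices 1 to 7, and slice 8 held 0.386 CPM in root B and 174 CPM in root A.

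Zm00001d006933, the highest member, differed by -1.52 ± 0.32 (SE) on the log2 scale on slices 9 and 13 alone, with an edgeR adjusted p of 0.0756. Zm00001d021736 was the member called higher in root B over slices 9 to 13. In these slices it was at 342, 227, 288, 69.7 and 33.4 CPM in root B and at 256, 98.7, 84.7, 27.3 and 16.4 CPM in root A. On slices 9 and 13 alone its log2 difference was 0.56 ± 0.32 (SE), with an edgeR adjusted p of 0.567. Leaving out any 1 of the 10 libraries of slices 9 to 13 left 2 to 4 members called, 2 without either library of slice 13.

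Applied to 1 root at a time, the same thresholds gave 44 genes in root B and 121 in root A, and 16 in both, which is 36.4% of the root B list and 13.2% of the root A list. Those 16 were all members, which follows from the thresholds, because both roots enter each mean equally. Of the other members, 5 met the thresholds in root B only, 18 in root A only and 1 in neither. The other root, which a list from 1 root did not use, allows a comparison. Of the 44 genes of root B, 42 were higher in slices 10 to 12 than in both flanks in root A, at medians of 5.07 times slices 1 to 7 and 3.66 times slices 14 to 16; 23.5% of all genes tested were so. Of the 121 genes of root A, 94 were so in root B, at medians of 2.17 and 1.96 times, against 24% of all genes. Without slice 12 of root A, 118 genes met the thresholds in root A, and 103 of them were so in root B, at medians of 3.42 and 2.48 times. These counts are given beside those of all genes with no test. The 2 roots were cut together, so they are not independent in position.

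Genes that met both fold thresholds were few among those that came up along the root. Of 7447 genes at 20 CPM or more in slices 10 to 12, 1231 stood at 3 times or more over slices 1 to 7. Of these, 527 were lower in slices 14 to 16 than in slices 10 to 12 by any amount, and 704 (57.2%) were higher. The median of slices 10 to 12 over slices 14 to 16 was 0.914. By the stricter measure, 40 (3.25%) stood at 3 times or more over slices 14 to 16. Of the 315 genes at 3 times or more over slices 14 to 16, the members were 12.7%. The 174 identifiers of the GRMZM5G series gave 0 genes by the same thresholds.

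The edge of the group was not a gap. Just inside it, Zm00001d042051 had 178 CPM in slices 10 to 12, which was 3.03 times slices 1 to 7 (58.9 CPM) and 3.54 times slices 14 to 16 (50.4 CPM). Just outside it, Zm00001d028002 had 36.8 CPM and stood at 3.72 times the front but 2.99 times the back. In all, 74 genes at 3 times or more over the front stood at 2 to 3 times over the back. Of the 635 Zm00001d identifiers whose number is within 10 of a member's, 0 were members. Over all Zm00001d identifiers the share of members was 0.102%, so a count of 0 is near that share and nothing is read from it.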

How the data were processed

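RNA-seq was made from 16 slices of each of 2 roots, 32 libraries in all. The deposited table holds whole-number counts per gene identifier, made by the authors; Trimmomatic, kallisto 0.43 and DESeq2 are named in the submitters' processing notes without their roles, and per the labels' protocols RNA was amplified with the Ovation RNA-Seq System V2. The sources used here give no genome build, annotation, strand or rounding of counts, so reads shared by near-identical genes cannot be placed. CPM was the count over the library total. Members and tests were chosen with earlier results of these data known.

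The deposited counts were tested in R 4.3.3 with edgeR 4.0.16 (TMM, glmQLFit robust, glmQLFTest, Benjamini-Hochberg over all genes tested). The filter was filterByExpr with the slices as groups (minimum count 10 and total 15); it kept 19587 genes and all 40 members. Slices were compared in 1 fit of 16 slices over 32 libraries, and roots with slice plus root over the 10 libraries of slices 9 to 13. A call is an adjusted p under 0.05. Both roots were cut together and nothing else was replicated. Between slices, p-values measure the spread between 2 roots within slices. Between roots, each side is 1 root and its slices stand in as replicates. Those p-values measure how far the root difference varies from slice to slice, and not the spread among roots. The letter a or b in the sample titles was taken to mark the same root in every slice, and on that reading roots pair across slices. Deviations of a root from the slice mean correlated between slices at a median of 0.152 over 120 pairs of slices (-0.0207 to 0.403).

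With no names for the identifiers, the genes named in the text are the 2 highest members, the 2 highest over the higher flank, 1 just inside and 1 just outside the thresholds, and, per comparison, the called member with the highest and with the lowest change among those that moved alike in both roots (between roots, in at least 4 of 5 slices). Others are named as one of few or were chosen after their values were seen. Gene family lists and cell type markers could not be applied. Alternatives were DESeq2 1.42.0, its size factors, no filter, an older dispersion step, the root as block, libraries left out and other thresholds.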

Additional observations from a re-analysis of the deposited data

Results flagged for a closer look

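Among the 6 libraries of slices 10 to 12, 10 quantities of the text were examined for a library far from the others, and 4 had one. By chance about 1 in 20 groups would have one, but these 6 libraries chose the members, and members such as Zm00001d038034 were chosen through their highest library, so the count cannot be read against that rate. The measure is the gap to the nearest library over the whole range, set against Dixon's 95% critical value for 6 libraries.

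The summed level of the members was highest in slice 10 of root A, with a gap of 0.666 of the range. The same library was highest for Zm00001d052835, with 0.717, and for Zm00001d042051, the gene just inside the thresholds, with 0.84. Zm00001d038034 was highest in slice 12 of root A, with 0.936. Over all 40 members 13 were past the limit at the high end, 9 of them in slice 12 of root A and 4 in slice 10 of root A, and 0 were past it at the low end.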

How the results depend on the processing

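The number of members moved with the thresholds: it was 40 as reported, 73 with a minimum of 10 CPM, 24 with 40 CPM, 260 at 2 times the flanks, 11 at 5 times, 121 in root A alone and 16 where each root had to meet them. Leaving out 1 of the libraries gave 45 to 58 genes. Calls rest on few libraries. Leaving out 1 library gave 0 to 13 members called for slice 9 against slice 8, 0 to 4 for slice 13 against slice 9, 0 to 7 for slice 12 against slice 10 and 2 to 4 between the roots. With the older dispersion step these were 0, 0, 0 and 3, with 11, 3 and 4 members at an unadjusted p under 0.05 between slices. With slice 7 as 1 library they were 3 for slice 9 against slice 8 and 0 for slice 12 against slice 10. Without slices 1, 8 and 12 of root A, chosen after seeing the data, they were 0 (21 at an unadjusted p under 0.05), 4 and 0 (6 at an unadjusted p under 0.05) between slices. Slice 12 against slice 10 gave 3 without a filter and 0 by DESeq2 (7 at an unadjusted p under 0.05), and the roots 2 over slices 10 to 12 and 0 over slices 9 and 13 (8 at an unadjusted p under 0.05), which was added after seeing the data. Zm00001d038034 ranged from -1.01 to 5.98 with 1 library left out, reversing to -1.01 without slice 12 of root A, and was -1.002 without slices 1, 8 and 12 of root A. For settings other than libraries left out, the cause was not tested.

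With the root as replicate block 7, 3 and 1 members were called between slices, and 823, 882 and 58 genes, against 561, 512 and 18 genes without it; every member called without the block was called with it. DESeq2 called 1255, 605 and 51 genes between slices and 1017 between the roots, against 712. The older step called 101, 179, 1 and 382, no filter gave 873 for slice 9 against slice 8 and 214 for slice 12 against slice 10, and all 32 libraries gave 1964 between the roots. Without slices 1, 8 and 12 of root A 38, 1609 and 2 genes were called between slices, slice 7 as 1 library gave 3 for slice 12 against slice 10, and the roots gave 58 over slices 10 to 12 and 82 over slices 9 and 13. Without slice 8 of root A or B, slice 9 against slice 8 gave 22 or 5249. The median change of members for slice 12 against slice 10 was 0.275 without slice 10 of root A. Zm00001d032881 was called in 17 of 18 alternatives, Zm00001d021736 (between roots) in 9 of 18, and Zm00001d026223 and Zm00001d052835 in 14 of 19 each.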
